A study of Homo sapiens with 6 samples.

Results

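The MYC/MAX/MXD network was examined here as 10 genes, MYC, MAX, MXD1, MXD3, MXD4, MXI1, MNT, MLX, MGA and MYCBP, chosen by name from the 57886 genes listed for each library. Transcript levels had been measured by RNA sequencing in 6 libraries of MOLP-8 cells, an established line from a human plasma cell cancer, multiple myeloma. Control cells (3 libraries) carried the lentiCRISPRv2 vector with a scrambled guide, and LIN28B KO cells (3 libraries) carried the same vector with a guide against LIN28B. Puromycin selection and serum-containing RPMI medium were common to both groups, and the sample titles name the second group KD where the condition label says KO. Whether the KO cells were a pool or a clone is not stated, nor whether libraries of a group are separate cultures. The p-values therefore rest on a spread among libraries that may be technical only. The design asks which transcripts differ when LIN28B is targeted.

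MYC is a basic helix-loop-helix leucine zipper transcription factor that binds DNA only as a dimer with MAX, at the E-box motif CACGTG. The MXD proteins (MXD1, MXD3, MXD4 and MXI1), MNT and MGA also dimerise with MAX, occupy the same motif and recruit repressors, so that MYC and its antagonists compete for MAX and for sites. MLX is the partner of a parallel branch that senses nutrients through MLXIP and MLXIPL, and also pairs with some MXD proteins and MNT. LIN28B blocks maturation of let-7 microRNAs, and MYC is among the transcripts known to be lowered by let-7. In myeloma, MYC activity is a common driver of growth.

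Because let-7 is what LIN28B controls, its seed is shown first, with the matches found in the 3′ UTRs of the network. RefSeq (GRCh38.p14) lists 8 distinct human let-7 names that share the seed, bases 2 to 8, and 3 other microRNAs with it (miR-98, miR-4458 and miR-4500). One of them, let-7a, stands here for all, with the seed in capitals.
hsa-let-7a-5p: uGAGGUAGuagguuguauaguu
The reverse complement of the seed, CTACCTC, was searched on the sense strand in the longest annotated 3′ UTR of each gene (GENCODE 29). It occurred in 3 of the 10 genes, MXD1, MYCBP and MGA, once in each, against 9.71% of the 19133 genes with a 3′ UTR. A longer 3′ UTR offers more places for a match, and the shares were not adjusted for length. The median length was 1104 bases over all genes, and every member but MYC was longer, from 1619 bases in MXD3 to 5801 in MGA. The matches are shown in capitals because these are the network transcripts on which let-7 could pair through its full seed.
MXD1 3′ UTR site: gaacatttttttttcCTACCTCagagataa
MYCBP 3′ UTR site: gaatgtccgtgatgcCTACCTCacagggtt
MGA 3′ UTR site: ggttgaaggaaccaaCTACCTCttgcatat
The match began at base 802 of the MXD1 3′ UTR, base 1094 of that of MYCBP and base 5716 of that of MGA. MXD1 and MYCBP also had an A after the match and MGA did not. The 3′ UTR of MYC is short, 476 bases, and did not hold these letters, nor did those of MAX, MLX, MNT, MXD3, MXD4 and MXI1.

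The E-box CACGTG, which reads the same on both strands, was searched in the window from 250 bases before to 50 bases after each RefSeq start. The promoter table matched 9 of the 10 genes, all but MYC. The motif was in 3 of their 15 windows, 1 each of MXD4, MNT and MLX, and in 7.26% of all 35116 windows. It lay 238 bases before the start in MXD4, 193 in MNT and 50 in MLX. They are printed 5′ to 3′ along the gene, with the E-box in capitals, since the network's own dimers bind this motif.
MXD4 promoter, chr4:2262330-2262359 (GRCh38.p14, minus strand): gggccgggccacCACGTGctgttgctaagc
MNT promoter, chr17:2401236-2401265 (GRCh38.p14, minus strand): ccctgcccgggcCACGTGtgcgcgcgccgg
MLX promoter, chr17:42567038-42567067 (GRCh38.p14, plus strand): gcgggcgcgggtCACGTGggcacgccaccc

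Values are FPKM, fragments scaled to transcript length and library depth, as deposited, so levels of different genes can be compared. Depth was approximated from the deposited bounds, and ran from 4808210 to 8368315 fragment equivalents per library. The bounds need not reflect counting alone, so these are rough figures. LIN28B KO library 3 stood apart: its median log2 ratio to the control mean over all tested genes was -0.35, against -0.01 in each of KO libraries 1 and 2. LIN28B itself, the targeted gene, fell from a control mean of 24.4 ± 1.07 FPKM (SD, n = 3) to 8.41, 8.17 and 5.84 FPKM in KO libraries 1 to 3 (limma adjusted p = 0.0207 with 6 libraries). Plasma cell genes such as SDC1 (189 to 326 FPKM), IRF4 (263 to 363 FPKM) and XBP1 (669 to 1049 FPKM) were high in every library, and the B cell gene MS4A1 was listed at 0. Markers of other cells were low: the summed level of 8 T and NK cell genes was 1.93 to 2.19 FPKM in control and 3.20 to 5.20 FPKM in KO, that of 7 myeloid genes 0.458 to 1.51 and 0.774 to 1.76 FPKM, and that of 6 stromal genes 3.10 to 5.89 and 3.62 to 14.2 FPKM. CD3D and NKG7 were at 0 in every library. KLRD1 was at 0.514, 0.497 and 0.590 FPKM in control libraries 1 to 3 and at 0.880, 1.34 and 2.26 FPKM in KO libraries 1 to 3. CD3G was at 0.290, 0.476 and 0.329 FPKM in control against 0.645, 0.821 and 1.67 FPKM in KO. CD2 went the other way, with means of 0.349 FPKM in control and 0.170 FPKM in KO. The part of these markers in the results was not tested. In bulk RNA, fewer cells of a kind and less transcript per cell cannot be told apart.

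Each gene was tested with limma on log2(FPKM + 0.5), in a fit over all 6 libraries and in a fit over protein-coding genes without LIN28B KO library 3, called the 5-library fit here. That second fit was chosen because KO library 3 had stood apart in earlier results of these data. Its p-values do not allow for this choice. A gene was called when its Benjamini-Hochberg adjusted p over all genes was under 0.05. With 6 libraries 0 of the 9 testable members were called, where 0.0949% of the 15803 genes tested were (0.0633% higher and 0.0316% lower). In that fit 2 of the 9, MYC and MXD3, had an unadjusted p under 0.05, as had 2163 of the 15803 genes tested. A count of 2 among so few genes is no result about the members. In the 5-library fit 2 of 9 were called, MXD4 higher and MYC lower, against 4.09% of the 11308 genes tested (1.08% higher and 3.02% lower). With cyclic loess, a scaling that removes each library's trend with level, 1 of 9 was called in the 5-library fit, MXD4, against 2.25% of genes (1.08% higher and 1.17% lower), and 0 of 9 with 6 libraries, against 0.702% (0.361% higher and 0.342% lower). Keeping non-coding genes in the 5-library fit also left MXD4 alone, against 0.417% of genes (0.15% higher and 0.267% lower). The median log2 fold change of the 9 was -0.17 with 6 libraries, beside -0.13 for all genes, and -0.01 in the 5-library fit, beside -0.04 for all genes. Among the 11 tested plasma cell markers 2 rose in the 5-library fit, SLAMF7 (1.91-fold, limma adjusted p = 0.0198) and TNFRSF17, the receptor BCMA (1.33-fold, limma adjusted p = 0.0329). With non-coding genes kept only SLAMF7 was called (limma adjusted p = 0.0482, and 0.0691 for TNFRSF17), and with 6 libraries neither was (limma adjusted p = 0.235 and 0.420). Of the stromal markers 2 could be tested, COL1A1 and DCN, and neither was called (limma adjusted p = 0.251 and 0.708 in the 5-library fit). The plot of levels by library shows the 10 network genes side by side.

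**Figure D1:**
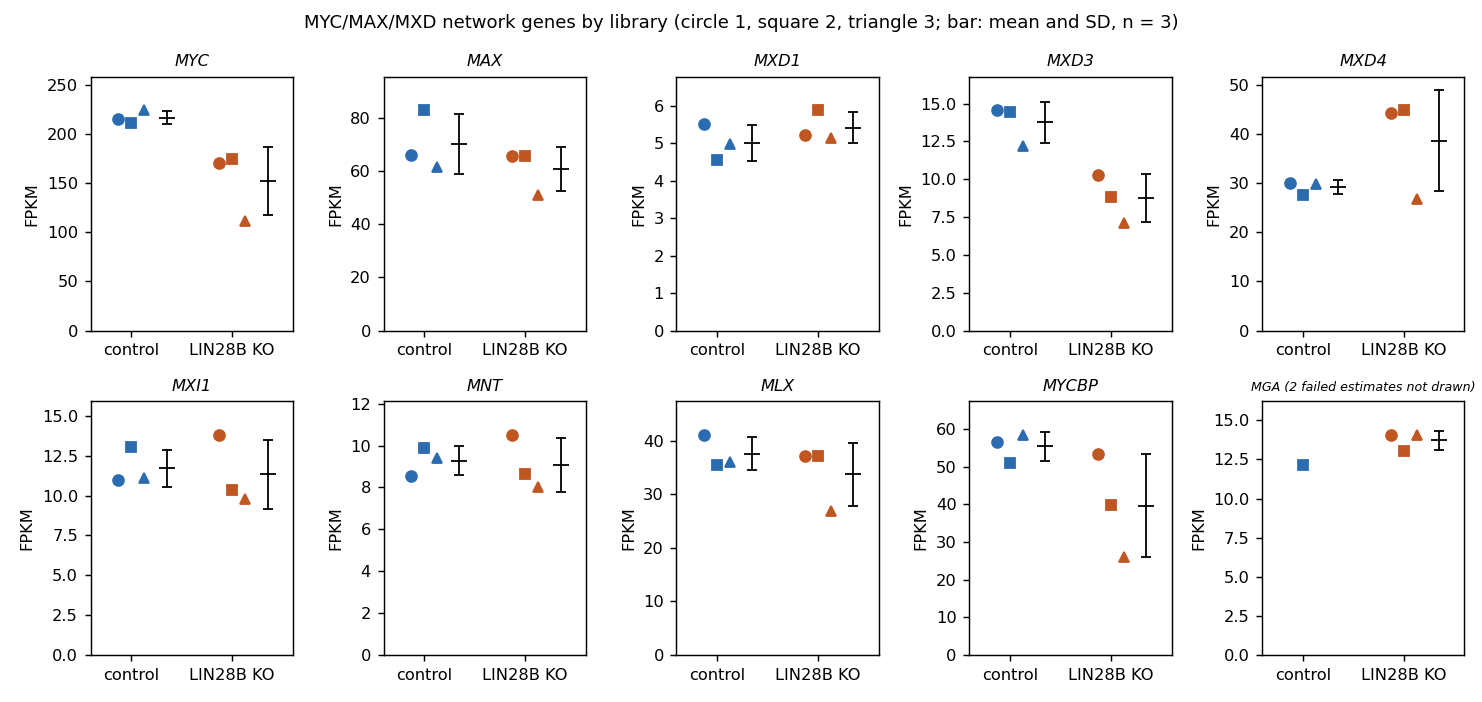
FPKM (vertical axis, linear from 0) of each network gene in the control and LIN28B KO libraries, with symbols for library 1, 2 and 3 and bars for the mean and SD (n = 3). MYC and MXD3 lie lower in all 3 KO libraries than in any control, and MXD4 is higher in KO libraries 1 and 2 only; for MGA the 2 control libraries with a failed estimate are not drawn.

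MYC was the most abundant transcript of the network and lay lower in the KO cells. It is a single gene of chromosome 8, at 128747680 to 128753674 of GRCh37 (ENSG00000136997), and no other listed gene overlaps it. Its level was 215, 211 and 224 FPKM in control libraries 1 to 3 and 171, 174 and 112 FPKM in KO libraries 1 to 3. The groups did not overlap, and KO library 3 was lowest by far. Among all tested genes, 20.1% lay lower in KO without overlap, as 2 of the 9 members did (MYC and MXD3), so this share is near the background. Non-overlap in either direction held for 27.7% of genes, and KO higher for 7.61%. Without KO library 3 the groups did not overlap for 3 of the 9, MYC and MXD3 lower and MXD4 higher, where 41.4% of genes did not (26.4% lower and 15.0% higher). The lower and upper bounds listed with each value describe error within 1 library, and which sources of error they include is not given. They were 204 to 219 FPKM in the lowest control and 167 to 181 FPKM in the highest KO library, so these bounds did not overlap. The means were 217 ± 6.69 and 152 ± 35.0 FPKM (SD, n = 3 each), and an exact two-sided permutation test gave p = 0.1, the smallest p that 3 against 3 libraries allow. With 6 libraries the log2 fold change was -0.54 (SE 0.19, limma adjusted p = 0.333). In the 5-library fit it was -0.33 (SE 0.05, 95% interval -0.45 to -0.21, limma adjusted p = 0.0298), a 1.26-fold lower level.

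The size of the MYC difference depended on KO library 3, and its call on the scaling. After cyclic loess the log2 ratios of MYC to the control mean were -0.26, -0.23 and -0.36 in KO libraries 1 to 3, and the controls lay between -0.03 and 0.06. All 3 KO libraries were thus below all controls on that scale as well. The call was lost with that scaling (limma adjusted p = 0.0693 in the 5-library fit and 0.0808 with 6 libraries), with quantile normalization (log2 fold change -0.24, limma adjusted p = 0.0669) and when the 5-library fit kept non-coding genes (limma adjusted p = 0.0622) or had no filter on low levels (limma adjusted p = 0.0635). In the 5-library fit, which holds protein-coding genes only, no gene was called when any 1 control was left out. With a single KO library kept, the log2 fold change of MYC was -0.31 without KO library 1 and -0.34 without KO library 2.

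MAX, the shared partner, was not called in either fit. It was at 65.8, 82.8 and 61.6 FPKM in control cells against 65.5, 65.6 and 51.0 FPKM in KO cells. Control library 2 was the highest of the 6 and the groups overlapped. The log2 fold change was -0.20 with 6 libraries (limma adjusted p = 0.564) and -0.08 in the 5-library fit (95% interval -0.38 to 0.21, limma adjusted p = 0.735). The MAX locus on chromosome 14 (65472892 to 65569413 of GRCh37) overlaps FNTB and the readthrough model CHURC1-FNTB, which GENCODE 29 places on the other strand. CHURC1-FNTB rose in the 5-library fit, from a control mean of 5.26 FPKM to 19.3 and 13.0 FPKM in KO libraries 1 and 2 (log2 fold change 1.55, limma adjusted p = 0.0337), and was at 5.36 FPKM in KO library 3. Whether counting used strand is not given in the sources used here, so reads of overlapping genes may be shared between them.

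MLX, the partner in the nutrient-sensing branch, lay within the controls in KO libraries 1 and 2. It was at 41.1, 35.5 and 36.1 FPKM in control cells against 37.2, 37.1 and 26.9 FPKM in KO cells, with library 3 alone below the controls. Its 5-library log2 fold change was -0.01 (95% interval -0.22 to 0.19, limma adjusted p = 0.947). After cyclic loess library 3 was within the controls too, with a log2 ratio of 0.01.

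MXD4, a MAX partner that opposes MYC and is typical of resting and differentiating cells, showed the largest rise among the members in the 5-library fit. The gene lies on chromosome 4 at 2249159 to 2264021 of GRCh37 (ENSG00000123933). It was at 30.1, 27.7 and 29.8 FPKM in control cells against 44.3, 44.8 and 26.7 FPKM in KO cells. KO libraries 1 and 2 stood well above every control, and library 3 just below them. MXD4 was 1.52-fold higher in the 5-library fit (log2 fold change 0.60, SE 0.07, 95% interval 0.43 to 0.78, limma adjusted p = 0.0240). That call held with cyclic loess (limma adjusted p = 0.0220), with quantile normalization (limma adjusted p = 0.0227) and with non-coding genes kept (limma adjusted p = 0.0485). It did not hold without the filter on low levels (limma adjusted p = 0.0571) or with 1 more library left out (limma adjusted p = 0.0662 to 0.0914). With all 6 libraries the log2 fold change was 0.36 (SE 0.21, limma adjusted p = 0.449).

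On the cyclic loess scale MXD4 was higher in KO library 3 as well. Its log2 ratios to the control mean were 0.65, 0.66 and 0.35 in KO libraries 1 to 3, and the controls lay between -0.07 and 0.04. With 6 libraries on that scale the log2 fold change was 0.55 (SE 0.10), short of the threshold (limma adjusted p = 0.0789).

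MXD3, the antagonist whose transcript is known to be made in S phase, lay lower in every KO library. It was at 14.6, 14.5 and 12.2 FPKM in control cells against 10.3, 8.82 and 7.12 FPKM in KO cells, with no overlap between the groups. The log2 fold change was -0.64 with 6 libraries (SE 0.17, limma adjusted p = 0.274) and -0.50 in the 5-library fit (SE 0.12, 95% interval -0.79 to -0.21, limma adjusted p = 0.0731), so it missed the threshold in both. After cyclic loess the log2 ratios were -0.38, -0.59 and -0.53 in KO libraries 1 to 3, all below the lowest control at -0.16. The MXD3 locus on chromosome 5 (176728462 to 176739758 of GRCh37) holds PRELID1, an abundant gene of the other strand that was at 102 ± 5.05 FPKM (SD, n = 3) in control and at 93.6, 77.3 and 54.1 FPKM in KO cells. It also overlaps RAB24 over 2284 bases. The part of either gene in the MXD3 values was not tested.

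The other tested antagonists, MXD1, MXI1 and MNT, were not called in either fit. MXD1, the founding member of the MXD group, was at 5.52, 4.55 and 4.97 FPKM in control cells against 5.22, 5.88 and 5.14 FPKM in KO cells. It carries a let-7 seed match, printed above, and its 5-library log2 fold change was 0.14 (95% interval -0.18 to 0.45, limma adjusted p = 0.586). The groups overlapped, and MXD1 was the only one of the 9 members whose KO library 3 value was not below its lowest control. The MXD1 locus overlaps SNRNP27, a more abundant gene of the same strand, over 7888 bases. SNRNP27 was at 42.6 ± 3.80 FPKM (SD, n = 3) in control and at 40.8, 39.0 and 26.6 FPKM in KO cells. The part of SNRNP27 in the MXD1 values was not tested. MXI1, the MXD family member sometimes called MXD2, was at 11.0, 13.0 and 11.1 FPKM in control cells against 13.8, 10.4 and 9.80 FPKM in KO cells. Its 5-library log2 fold change was 0.03 (95% interval -0.32 to 0.38, limma adjusted p = 0.919).

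MNT, a larger antagonist found in both dividing and resting cells, was at 8.55, 9.89 and 9.42 FPKM in control cells against 10.5, 8.64 and 8.05 FPKM in KO cells. The groups overlapped, and the 5-library log2 fold change was 0.04 (95% interval -0.26 to 0.33, limma adjusted p = 0.885). MGA, the largest protein of the network and the scaffold of a Polycomb-type repressor complex, could not be tested. Its estimate is marked as failed in control libraries 1 and 3, where 13.7 and 11.2 FPKM are listed beside upper bounds of 1.01 and 0.663 FPKM. The usable values were 12.1 FPKM in control library 2 and 14.1, 13.0 and 14.1 FPKM in KO cells.

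MYCBP, a small protein that binds the N-terminal part of MYC, carries the let-7 seed match printed above. It was at 56.5, 51.1 and 58.5 FPKM in control cells against 53.2, 39.8 and 25.9 FPKM in KO cells. KO library 1 lay within the controls and the other two below them. The log2 fold change was -0.53 with 6 libraries (SE 0.25, limma adjusted p = 0.384) and -0.26 in the 5-library fit (SE 0.13, 95% interval -0.57 to 0.05, limma adjusted p = 0.280). After cyclic loess the log2 ratios were 0.01, -0.41 and -0.58 in KO libraries 1 to 3, so the KO libraries differed among themselves on that scale too.

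**Figure D2:**
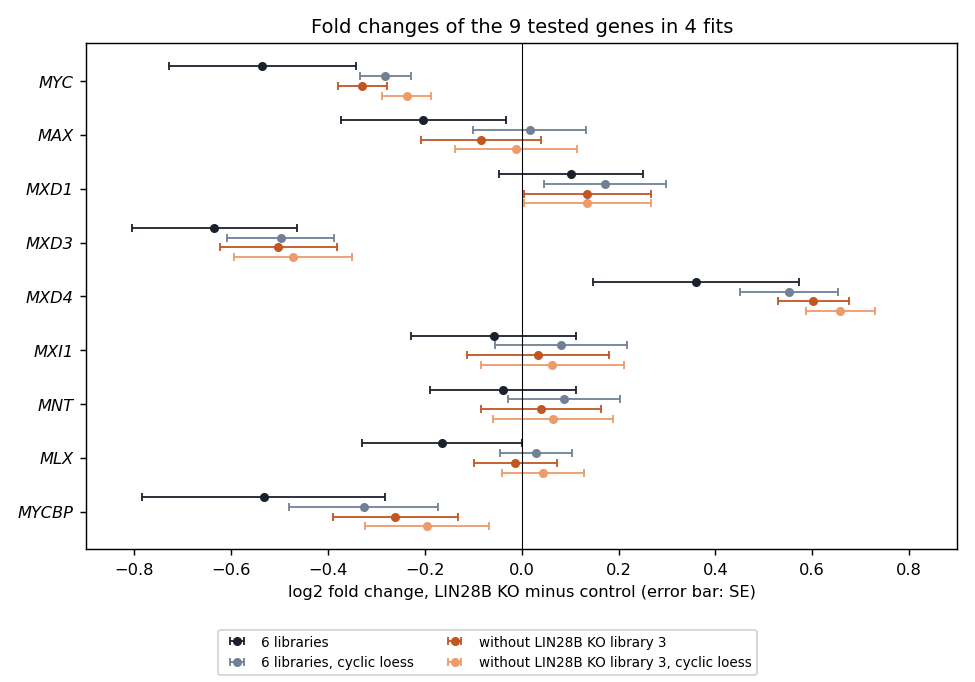
Log2 fold change, KO minus control (horizontal axis; points with SE bars) for the 9 tested network genes (vertical axis), with 6 libraries and without LIN28B KO library 3, as deposited and after cyclic loess. MXD4 lies above 0 and MYC and MXD3 below 0 in all 4 fits, while MAX, MXI1, MNT and MLX lie near 0 after cyclic loess.

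A ratio of levels within 1 library does not change when that library is scaled by a single factor, so the balance between MYC and its partners was also given as ratios of FPKM. Scaling that depends on level is not removed. In KO library 3 cyclic loess moved the log2 ratio to the control mean from -0.95 to -0.36 for MYC. It moved that of MXD4 from -0.12 to 0.35 and that of MXD1 from 0.04 to 0.28. Ratios were not computed on that scale, and the part of this shift in them was not tested. The ratio of MYC to the sum of the 5 antagonists MXD1, MXD3, MXD4, MXI1 and MNT was 3.08, 3.04 and 3.32 in the controls and 2.03, 2.22 and 1.97 in the KO libraries. All 3 KO libraries, library 3 included, were below every control, and the means were 3.15 ± 0.153 and 2.07 ± 0.131 (SD, n = 3 each). The KO mean stayed between 0.635 and 0.677 of the control mean when any 1 library was left out. The shares of single antagonists in that sum were computed after the values had been seen and are a description. MXD4 was 42.3% ± 2.31 of their sum in control and 52.2% ± 5.05 in KO (SD, n = 3 each), and the share of MXD3 went from 19.9% ± 1.59 to 12.0% ± 0.676 (SD, n = 3 each).

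The ratio of MYC to MAX did not separate the groups. It was 3.27, 2.55 and 3.64 in the controls and 2.60, 2.66 and 2.19 in the KO libraries, with control library 2, where MAX was highest, below 2 of the KO libraries. MAX was thus below MYC in FPKM in every library.

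A further pair of ratios was chosen after the values had been seen, and sets MXD4 against MYC and MXD3. MYC to MXD4 was 7.14, 7.64 and 7.52 in the controls and 3.85, 3.89 and 4.19 in the KO libraries. MXD4 to MXD3 was 2.07, 1.91 and 2.44 in the controls and 4.30, 5.08 and 3.75 in the KO libraries. Neither ratio overlapped between the groups, and KO library 3 lay with the other KO libraries in both. The means of MYC to MXD4 were 7.43 ± 0.264 in control and 3.98 ± 0.185 in KO (SD, n = 3 each).

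**Figure D3:**
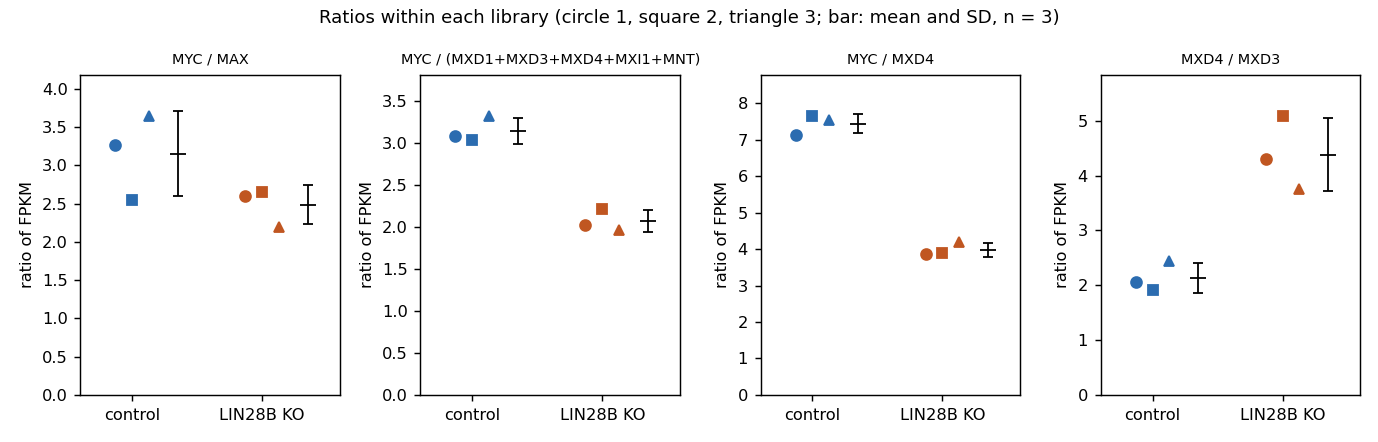
Ratio of FPKM within each library (vertical axis, linear from 0) for MYC to MAX, MYC to the 5 summed antagonists, MYC to MXD4 and MXD4 to MXD3, with symbols for library 1, 2 and 3 and bars for the mean and SD (n = 3). The 3 KO libraries are separate from the 3 controls in every panel but the first, where control library 2 (2.55) lies among them. MYC to MXD4 and MXD4 to MXD3 were chosen after the values had been seen.

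In control cells the order of levels was MYC (217 FPKM), MAX (70.1), MYCBP (55.4), MLX (37.6), MXD4 (29.2), MXD3 (13.8), MXI1 (11.7), MNT (9.29) and MXD1 (5.01). Of neighbours in this order, only MXD3 and MXI1 had overlapping control values. The precision differed between members: the deposited bounds correspond to 2564 to 4016 fragment equivalents per library for MYC but only 72.4 to 188 for MXD1 and 85.2 to 171 for MNT. The bounds need not be counting error alone, since MGA, at 14.1 FPKM in KO libraries 1 and 3, gave 274 and 553 fragment equivalents. For MAX the coefficient of variation among controls was 16.0%, where the bounds give 5.44%. For MNT it was 7.33% against 8.45% from the bounds, so the control spread of MNT was no larger than the error that the bounds give.

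The remaining genes of the branch around MLX and MYC were then examined. MYCN and MYCL, the paralogs of MYC, were at most at 0.053 and 0.305 FPKM in any library, and MLXIPL reached 2.23 FPKM only in its highest library. MLXIP, the glucose-sensing partner of MLX, was at 33.7, 40.6 and 38.5 FPKM in control cells against 49.1, 49.5 and 29.6 FPKM in KO cells. KO libraries 1 and 2 lay above every control and library 3 below. The 5-library log2 fold change of 0.39 (SE 0.09) missed the threshold (limma adjusted p = 0.0688).

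Among cofactors, 0 of 14 MYC coactivators and 0 of 14 corepressors used by MXD and MNT were called in the 5-library fit. Of the MGA complex PRC1.6, 0 of 10 genes were called there. The share of all genes called in that fit was 4.09%. A count of 0 in lists this short is therefore no result about the cofactors. The median log2 fold changes of these lists were -0.06, -0.01 and -0.07, in that order, beside -0.04 for all genes. The lowest p among coactivators was that of WDR5, a chromatin adaptor that helps MYC bind its sites and is also a part of the MGA complex (log2 fold change -0.39, SE 0.09, limma adjusted p = 0.0582). It stood at 28.0, 24.5 and 26.6 FPKM in control cells against 20.0, 19.9 and 14.7 FPKM in KO cells. RUVBL2, an ATPase of coactivator complexes, followed (-0.21, limma adjusted p = 0.127). Among corepressors the lowest p were those of RBBP7, a histone-binding subunit (-0.32, limma adjusted p = 0.0677), and ARID4B, a Sin3 subunit (0.35, limma adjusted p = 0.0890). In the MGA complex CBX3, a heterochromatin protein, came after WDR5 (-0.20, limma adjusted p = 0.141).

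Of 20 tested genes that govern the stability of the MYC protein, 1 was called in the 5-library fit, a share near the 4.09% of all genes called there. KIAA1524 encodes CIP2A, which inhibits the phosphatase PP2A and so protects MYC from degradation. It was at 23.5, 22.0 and 23.7 FPKM in control cells against 15.8, 14.1 and 11.5 FPKM in KO cells, with no overlap. It was 1.53-fold lower (log2 fold change -0.61, SE 0.09, limma adjusted p = 0.0289) and kept the call with cyclic loess (limma adjusted p = 0.0360), but not with non-coding genes kept (limma adjusted p = 0.0622) or with 6 libraries (limma adjusted p = 0.226). Of 9 other partners 1 was called, SMAD3, a transducer of TGF-beta signals that lowers MYC transcription, which was 1.25-fold lower in the 5-library fit (limma adjusted p = 0.0479). Its call was lost with cyclic loess (limma adjusted p = 0.0943), with non-coding genes kept (limma adjusted p = 0.0814) and with 6 libraries (limma adjusted p = 0.312), and 1 of so few genes is no result about the list beside 4.09% of all genes. The transcripts of the ubiquitin ligases FBXW7, SKP2 and HUWE1 were tested and not called.

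The listed genes that MYC is known to activate had a lower median log2 fold change than all genes, but their calls depended on the fit. Listed genes that it is known to repress were mixed. The lists were written from general knowledge, with earlier results of these data known. Without KO library 3, 20 of 79 activated targets fell and 0 rose, where 3.02% of all genes fell. The log2 fold change was below 0 in 77 of the 79, and the median log2 fold change was -0.22 beside -0.04 for all genes. The share of all genes below 0 was not computed, and the list was not compared with genes of like level. The genes that fell included RANBP1 of the nuclear transport cycle (1.37-fold, limma adjusted p = 0.0266), the growth regulator PA2G4 (1.37-fold), the helicase subunit MCM4 (1.28-fold), the nucleolar methyltransferase FBL (1.29-fold) and lactate dehydrogenase LDHA (1.18-fold), the latter 4 at a limma adjusted p of 0.0289. With cyclic loess 2 of the 79 fell, RANBP1 and PA2G4, where 1.17% of all genes fell, so that count is near the background, and the median was -0.13 beside 0.00. With 6 libraries 0 of 80 were called, with a median of -0.38 beside -0.13, and with non-coding genes kept in the 5-library fit 0 of 80 were called.

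Of 19 repressed targets tested in the 5-library fit, 4 rose and 2 fell, with a median of 0.21 beside -0.04 for all genes, of which 1.08% rose. FTH1, the ferritin heavy chain, was at 1519, 1397 and 1410 FPKM in control cells against 2036, 1966 and 1210 FPKM in KO cells (1.39-fold in the 5-library fit, limma adjusted p = 0.0171). Its KO libraries 1 and 2 were above and library 3 below every control, as for MXD4. FTH1 has many near-identical pseudogenes, among which its reads could be split, so its level is uncertain. CDKN1A, the p21 inhibitor of cyclin-dependent kinases, was 1.27-fold higher (limma adjusted p = 0.0266), BTG2, an antiproliferative gene, 1.21-fold (limma adjusted p = 0.0442) and TP53INP1, a stress response gene, 1.39-fold (limma adjusted p = 0.0386). These 4 kept the call with cyclic loess (limma adjusted p = 0.0128 for FTH1, 0.0220 for CDKN1A, 0.0318 for BTG2 and 0.0442 for TP53INP1), and TP53INP1 was the only one of them above all controls in KO library 3 as deposited, at 19.5 FPKM against 16.0 to 18.0 FPKM. CDKN1B and CDKN2C, inhibitors of cyclin-dependent kinases, fell instead (log2 fold changes of -0.33 and -0.32, limma adjusted p = 0.0473 and 0.0466) and lost the call with cyclic loess (limma adjusted p = 0.0879 and 0.102). With non-coding genes kept 2 of 20 rose and 0 fell, where 0.15% of all genes rose. Of the 4 named above only FTH1 kept its call there (limma adjusted p = 0.0438). CDKN1A, TP53INP1 and BTG2 lost it (limma adjusted p = 0.0607, 0.0763 and 0.0778). With 6 libraries 0 of 20 were called.

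**Figure D4:**
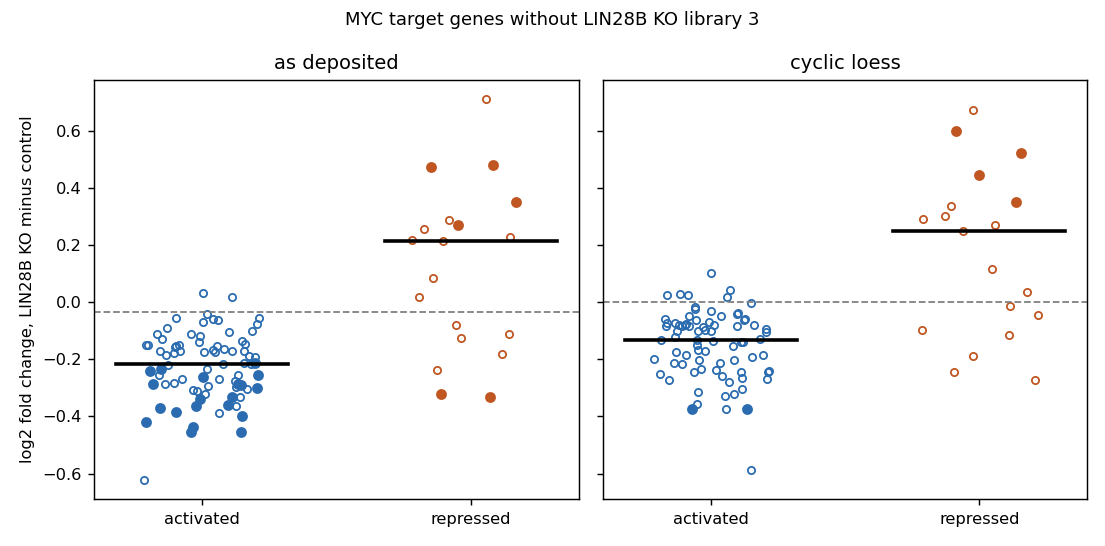
Log2 fold change, KO minus control, without KO library 3 (vertical axis) for genes that MYC is known to activate or repress, as deposited and after cyclic loess. Filled points passed the test, black lines are list medians (-0.22 and 0.21 as deposited, -0.13 and 0.25 after cyclic loess) and the dashed line is the median of all genes; nearly all activated targets lie below 0.

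The genes whose levels followed MYC most closely over the 6 libraries, among 8274 others with a mean of at least 10 FPKM, were APOA1BP, PHF19, TAGAP, SRSF2 and ANP32A, with Pearson r of 0.9988 to 0.9995 on the log2(FPKM + 0.5) scale. These points share the difference between groups and the low level of KO library 3, and the values are a description of 6 libraries. SRSF2, a splicing factor, went from a mean of 239 to 170.4 FPKM, and TAGAP, a GTPase-activating protein, from 17.9 to 13.0 FPKM.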

How the data were processed

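Levels of 10 network genes were compared between 3 control and 3 LIN28B KO libraries of MOLP-8 cells, grouped by the condition label. The deposited values are FPKM with a lower and an upper bound, per the file headers; the build was GRCh37 and the tools named were cutadapt, TopHat2 and HTSeq, per the submitters' processing notes, which give no versions. The program that wrote the tables is not given in the sources used here. Rows of 1 gene were summed, and 25 genes with a failed estimate in at least 1 library, MGA among them, were left out of tests. Genes with at least 1 FPKM in at least 3 libraries entered limma (version 3.58.1, R 4.3.3), fitted on log2(FPKM + 0.5) with its mean-variance trend and Benjamini-Hochberg adjustment. The 5-library fit used genes that GENCODE 29 lists as protein-coding. Fragment equivalents, the count a Poisson error of that width would have, come from (2 × FPKM / (upper bound - FPKM)) squared. The fits were also run on simulated data, drawn independently for each gene and library. These held no shift of a whole library such as that of KO library 3, so they do not test its effect. Genes, lists and tests were chosen with earlier results of these data known. Named genes are the members, LIN28B, called genes of each list (up to 5 by p, or the 2 smallest p) and the 5 most like MYC; CDKN1B, the ubiquitin ligases and genes overlapping a member were named after their values were seen. Alternatives were the pseudocount, the filter, cyclic loess, quantile normalization, the gene set, a replicate block and leaving out each library.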

Additional observations from a re-analysis of the deposited data

How the results depend on the processing

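Counts of called genes moved with the processing more than the members' fold changes did. With 6 libraries 15 genes were called, against 6 without the filter, 111 with cyclic loess, 28 with quantile normalization, 31 among protein-coding genes only and 4 to 64 with 1 library left out (7, 4 and 64 without KO library 1, 2 and 3, and 13 to 17 without a control). In the 5-library fit 463 were called, against 24 without the filter, 254 with cyclic loess, 247 with quantile normalization, 64 with all genes and 0 with any 1 library left out (limma, 1964 to 2349 genes at an unadjusted p under 0.05). The surplus of lower genes there (122 higher and 341 lower) became 122 and 132 with cyclic loess and 114 and 133 with quantile normalization.

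With the replicate number as a block, 13 genes were called with 6 libraries and 0 in the 5-library fit (limma, 2065 genes at an unadjusted p under 0.05), where control library 3 has no counterpart. The log2 fold changes under the block were -0.30 for MYC and 0.62 for MXD4 in that fit, both short of the threshold. Same-numbered libraries of the groups did not deviate together (correlations of -0.02, 0.04 and -0.03 over genes), and not every library correlated best with its own number, so no pairing was used.

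MYC, MXD3, MXD4, MXD1 and MYCBP kept their direction under every alternative run in both fits. With 6 libraries the log2 fold changes of MAX (0.016), MLX (0.030), MNT (0.087) and MXI1 (0.081) became positive with cyclic loess, as did those of MNT (0.021) and MXI1 (0.024) with quantile normalization. In the 5-library fit that of MLX became positive with cyclic loess (0.044) and quantile normalization (0.039). With 1 library left out, the log2 fold changes ranged from -0.15 to 0.039 for MNT and from -0.20 to 0.034 for MXI1 with 6 libraries. In the 5-library fit they ranged from -0.17 to 0.042 for MAX, from -0.052 to 0.053 for MLX, from -0.097 to 0.17 for MNT and from -0.17 to 0.23 for MXI1. None of these values was called, and the cause was not tested.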
